A study of Mus musculus with 2 samples.

Results

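Mir199a-1, Mir199a-2, Mir199b and Mir214 are microRNA genes that lie in introns of the dynamin genes, and all 4 were read out in microRNA libraries of the mouse heart. They were chosen by gene name in GENCODE M21, and are 4 of the 2202 microRNA genes counted. The single group held 2 biological replicates, both heart tissue of 14-day-old female mice of the F1 hybrid strain B6CASTF1/J, with no treatment and no engineered allele named. A label of replicate 1 mentions 3 females and that of replicate 2 mentions 1, and the labels do not say whether tissue was pooled. The age is that of the age field, while another label of both samples writes months after the same number. No condition was compared, so the data describe the levels of these genes and how far the libraries differed. RNA of under 30 bases was sequenced from whole tissue, in which fewer cells of a type and less RNA per cell cannot be told apart.

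A microRNA gene is transcribed into a hairpin, and Dicer cuts the hairpin into a 5p and a 3p strand, either of which can be loaded into Argonaute. The loaded strand finds messenger RNAs mainly by its seed, bases 2 to 8, and represses them. Dynamins are the GTPases that pinch vesicles from membranes. The microRNAs miR-199a and miR-214 are both made from the noncoding RNA Dnm3os, miR-199a also from Mir199a-1 in Dnm2, are known from mesenchymal cells such as fibroblasts, and in the heart have been linked to calcium handling, hypoxia and hypertrophy.

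The mature strands are shown first, since reads of a shared strand map to several places. Sequences are from RefSeq (GRCm38.p6), which held all 4 genes and 7 placed arms with 4 distinct sequences. Capitals mark the seed.
miR-199a-5p (Mir199a-1 and Mir199a-2): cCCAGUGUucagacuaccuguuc
miR-199a-3p (Mir199a-1 and Mir199a-2): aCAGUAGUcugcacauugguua
miR-199b-3p (Mir199b): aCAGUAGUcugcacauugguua
miR-214-5p (Mir214): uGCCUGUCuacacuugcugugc
miR-214-3p (Mir214): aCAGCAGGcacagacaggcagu
The 3p strand was the same in all 3 Mir199 genes, and the 5p strand the same in Mir199a-1 and Mir199a-2. Neither strand of Mir214 occurred in another annotated hairpin. The seed CAGUAGU was found in no arm outside the Mir199 genes among the arms placed, and the seed CAGCAGG of miR-214-3p was shared with miR-761, whose gene Mir761 had 0 reads in both libraries.

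In the hairpins, capitals mark the mature arms listed in RefSeq, 5′ to 3′.
Mir199a-1: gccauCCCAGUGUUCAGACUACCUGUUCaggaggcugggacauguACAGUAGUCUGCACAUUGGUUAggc
Mir199a-2: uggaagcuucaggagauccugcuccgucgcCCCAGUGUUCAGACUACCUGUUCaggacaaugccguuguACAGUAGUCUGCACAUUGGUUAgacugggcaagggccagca
Mir199b: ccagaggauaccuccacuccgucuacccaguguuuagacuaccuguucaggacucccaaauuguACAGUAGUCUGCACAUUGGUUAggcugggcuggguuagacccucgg
Mir214: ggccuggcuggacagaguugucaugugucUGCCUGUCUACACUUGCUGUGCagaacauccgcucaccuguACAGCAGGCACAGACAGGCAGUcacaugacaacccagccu
The 5p side of Mir199b held a stretch that differed from miR-199a-5p by 1 substitution, C10U, counted from 1 at the 5′ end of miR-199a-5p, with the base of miR-199a-5p first. That stretch is shown beside miR-199a-5p, with the differing base in capitals.
miR-199a-5p: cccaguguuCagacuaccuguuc
Mir199b, bases 26 to 48 of the hairpin: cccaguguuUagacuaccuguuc
The longest identical stretch was 27 bases between Mir199a-1 and Mir199a-2, 28 bases between Mir199a-1 and Mir199b, and 27 bases between Mir199a-2 and Mir199b. Each covered a whole mature strand with bases on both sides or on 1 side of it. Mir214 shared at most 7 bases with any Mir199 hairpin.

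All 4 genes ran against the strand of their dynamin gene, and none overlapped an exon of it. Mir199a-2 (mm10 chr1:162217814-162217923, plus strand) and Mir214 (chr1:162223368-162223477, plus strand) lay in introns of Dnm3, which is on the minus strand. Mir199b (chr2:32318460-32318569, plus strand) lay in an intron of Dnm1, on the minus strand, and Mir199a-1 (chr9:21496495-21496564, minus strand) in an intron of Dnm2, on the plus strand. An intron is thus only part of the annotation for the pair in Dnm3. Both also overlapped exons of Dnm3os on their own strand, Mir199a-2 in 5 of its 6 transcripts and Mir214 in 3 of 6. Only the transcripts with an exon across nearly all of Dnm3os held a whole hairpin, and the other overlaps were partial. The gap between the hairpins was 5444 bases. Of all microRNA genes, 307 (13.9%) overlapped protein-coding genes on the opposite strand only, and 30 of these were detected, by which is meant at least 10 reads in both libraries. Mir214 ranked 3 among those 30 by mean level, Mir199b 16 and Mir199a-2 24.

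**Figure D1:**
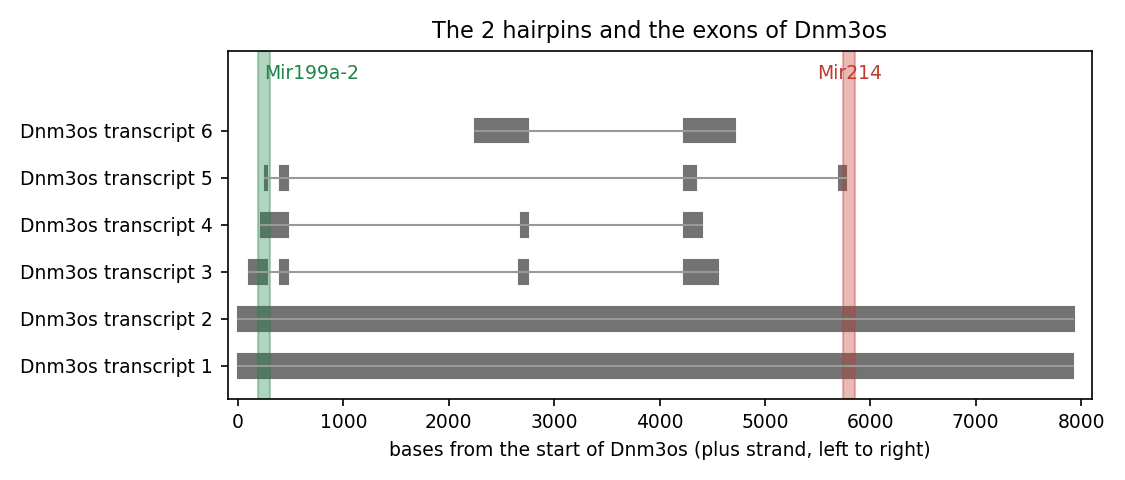
Exons of the 6 annotated Dnm3os transcripts (grey boxes, introns as lines) with the Mir199a-2 and Mir214 hairpins (shaded bands), in bases from the start of Dnm3os, to scale. Mir199a-2 lies near the start and Mir214 downstream of a gap of 5444 bases.

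Mir214 stood far above the Mir199 genes in uniquely mapped reads. Replicate 1 held 5237062 and replicate 2 held 3026501 reads assigned to microRNA genes in sense, and levels are counts scaled to 1000000 such reads (CPM). Mir214 had 10892 reads in replicate 1 and 4211 in replicate 2. These were 2080 CPM (exact 95% Clopper-Pearson interval 2041 to 2119) and 1391 CPM (1350 to 1434), or 1736 ± 487 CPM (SD, n = 2). Mir214 thus ranked 46 and 57 among all genes in the replicates, and 51 of the 335 detected genes by mean, with only 2 reads on the opposite strand in replicate 1 and 0 in replicate 2. Intervals cover counting error only, since no molecular identifiers tell PCR copies from molecules, and an SD over 2 libraries rests on a single difference that may in part be technical.

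The Mir199 genes had few reads, and their order was Mir199b, Mir199a-2, Mir199a-1 in both libraries. Mir199b had 72 and 135 reads, or 13.7 CPM (10.8 to 17.3) and 44.6 CPM (37.4 to 52.8), and a mean of 29.2 ± 21.8 CPM (SD, n = 2). Mir199a-2 had 21 and 20 reads, or 4.01 CPM (2.48 to 6.13) and 6.61 CPM (4.04 to 10.2), and a mean of 5.31 ± 1.84 CPM (SD, n = 2). Both libraries of Mir199b lay above both of Mir199a-2, and the counting intervals of the pair did not overlap within a library. Mir199a-1 had 0 reads in both libraries on either strand, where a floor of 3 reads lies at 0.573 CPM in replicate 1 and 0.991 CPM in replicate 2. The exact 95% intervals reach up to 0.704 and 1.22 CPM. None of the Mir199 genes had a read on the opposite strand.

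**Figure D2:**
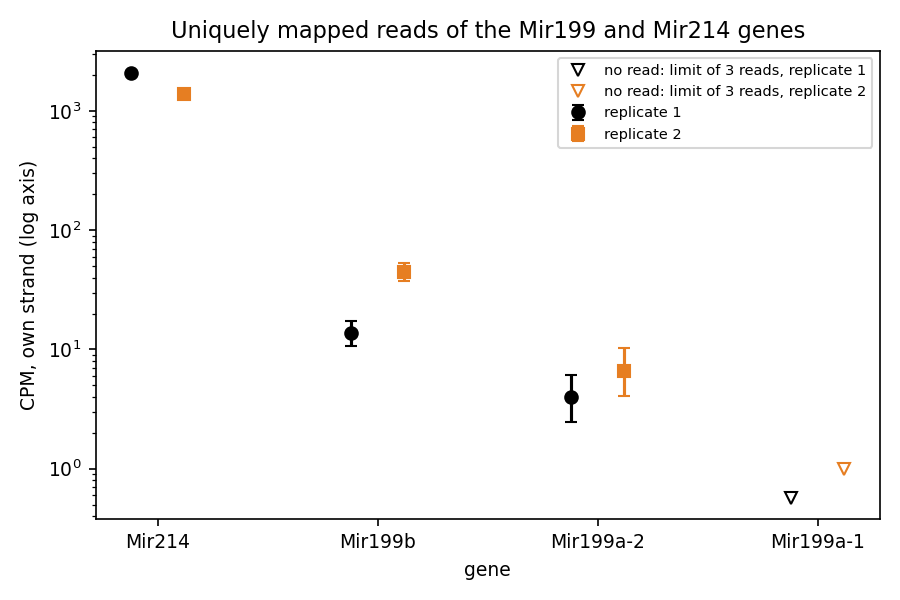
CPM on the own strand (log axis) of each gene in replicate 1 (circles) and replicate 2 (squares), with exact 95% counting intervals as bars and open triangles for a floor of 3 reads where no read was counted. Mir214 lies at 2080 and 1391 CPM, and no Mir199 gene exceeds 44.6 CPM.

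Scaling to the length of the hairpin could not change this order, since the genes with reads have hairpins of equal length. On the scale of CPM per 100 bases, Mir214 stood at 1891 in replicate 1 and 1265 in replicate 2, Mir199b at 12.5 and 40.6, and Mir199a-2 at 3.65 and 6.01. The hairpin of Mir199a-1 is annotated with 70 bases and the others with 110 bases each. Against a floor of 3 reads per library for Mir199a-1, the counts of Mir199a-2 were 7-fold higher in replicate 1 and 6.67-fold in replicate 2. These folds leave out counting error and are not lower bounds.

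These levels are of uniquely mapped reads, and for the Mir199 genes they cannot be read as the levels of miR-199a or miR-199b. Reads that mapped to several places were counted for no gene and were 41.1% of the whole library of replicate 1 and 39.9% of that of replicate 2. The deposited counts are per gene, so the reads of the 5p and 3p strands of a hairpin cannot be told apart, and how many miR-199 reads mapped to several places is unknown. Of the stretches of 22 bases in a hairpin, 8 of 89 in Mir199b, 12 of 89 in Mir199a-2 and 13 of 49 in Mir199a-1 also occurred in another hairpin, and 0 of 89 did in Mir214. These stretches span the whole hairpin, so their share is not a share of reads. Every mature strand that RefSeq lists for a Mir199 gene occurs whole in another Mir199 hairpin. The 5p side of Mir199b, which carries C10U, is the only strand of a Mir199 gene shown above whose full length differs from the others.

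The same count was made over all hairpins, as a description with no test. Of 1019 genes that share 22 bases with another, non-overlapping hairpin, 61 (5.99%) were detected, against 274 of 1183 (23.2%) of those that share none. Among the 61, Mir199b ranked 37 by mean CPM and Mir199a-2 ranked 57. RefSeq arms were placed for 302 of the 335 detected genes, and only 6 of these had every placed arm in another hairpin. Mir199b and Mir199a-2 were 2 of the 6, beside Mirlet7c-2 (1151 ± 19.4 CPM), Mirlet7a-1 (665 ± 60.8 CPM), Mir219a-2 (37.2 ± 15.2 CPM) and Mir3074-1 (13.8 ± 16.9 CPM), each with n = 2 and named after its values were seen. Mir199b belongs there by its 3p strand alone, as its 5p side, which carries C10U, has no arm listed in RefSeq. The share of reads lost by each of the 6 genes was not tested.

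**Figure D3:**
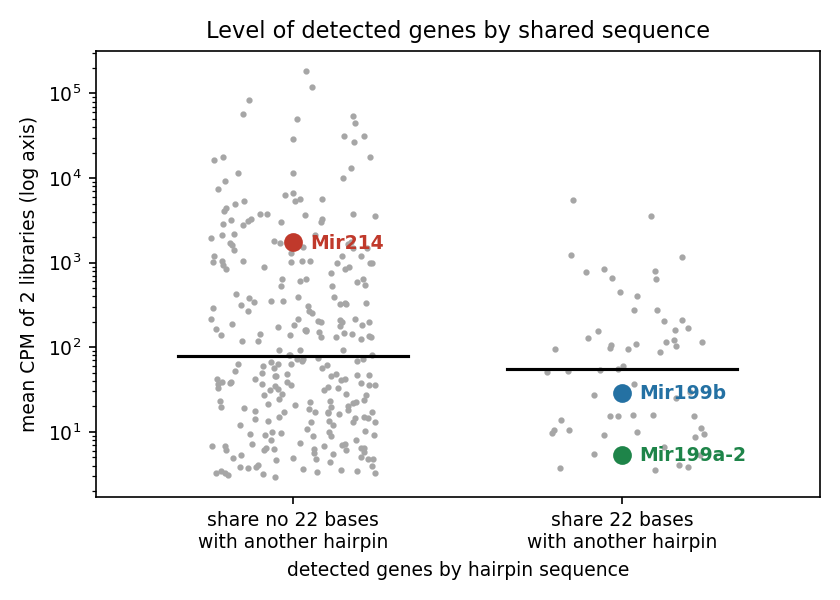
Mean CPM of 2 libraries (log axis) for the detected genes that share no 22 bases with another hairpin (left, 274 genes) and those that do (right, 61 genes). Bars mark the medians, 78.1 and 54.9 CPM, and coloured points the detected genes of the dynamin loci; horizontal scatter has no meaning.

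Although Mir214 and Mir199a-2 both lie in Dnm3os, their counted reads differed widely in each library. There were 519 Mir214 reads per Mir199a-2 read in replicate 1 (interval 339 to 838) and 211 in replicate 2 (136 to 345). The log2 ratio, with 0.5 reads added to each count, was 8.98 in replicate 1 and 7.68 in replicate 2. Beside this stood 103 other pairs of detected microRNA genes that follow each other on 1 strand within 10000 bases. Many of these pairs share a gene, and many lie in the single region from Mir770 to Mir3072, so they are not independent. The size of their mean log2 ratio had a median of 2.43 and a maximum of 8.11. By this mean of the 2 libraries, the Dnm3os pair had the largest of the 104. In replicate 2 alone, the Dnm3os pair was exceeded in size by Mir377 to Mir541 (log2 -8.54) and Mirlet7d to Mirlet7f-1 (8.15). In 19 of the other pairs exactly 1 gene shared 22 bases with another hairpin, as here, and their median was 3.16.

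The ratio within the pair also differed between the libraries, but its counting intervals, 339 to 838 and 136 to 345, overlapped. The log2 ratio changed by 1.30 between them, against a median size of 0.66 over the other pairs, and 18 of the 103 changed more. Among the 19 pairs in which exactly 1 gene shared 22 bases, the median was 0.46 and the maximum 1.17, so that 0 of 19 changed more. With 21 and 20 reads for Mir199a-2, this ratio has wide counting error.

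**Figure D4:**
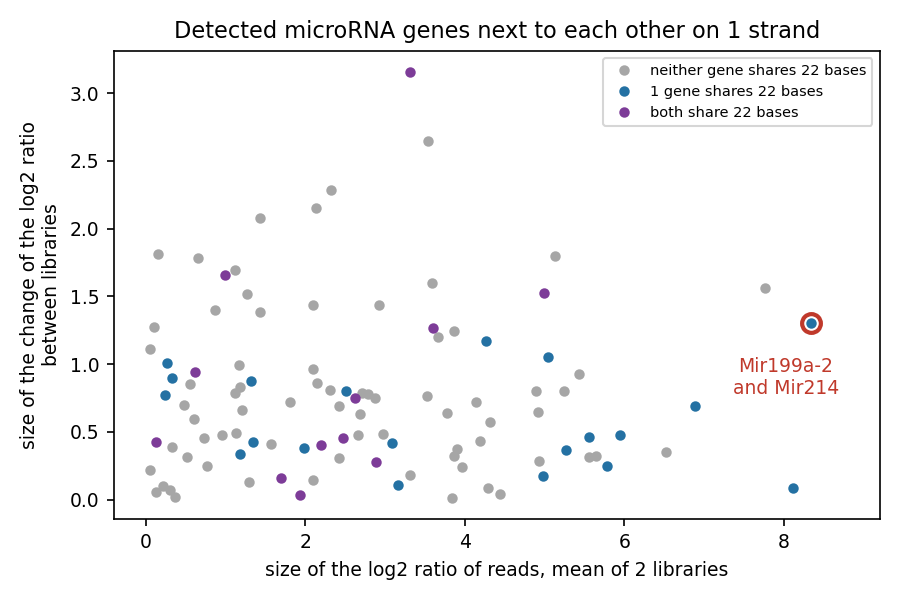
Each point is 1 of 104 pairs of neighbouring detected microRNA genes, with the size of the log2 ratio of their reads (mean of 2 libraries) on the x axis and the size of its change between libraries on the y axis. Colours give how many genes of a pair share 22 bases with another hairpin; the circled Mir199a-2 and Mir214 pair lies farthest to the right.

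Mir214 and Mir199b differed between the libraries in opposite directions. After TMM scaling, Mir214 was higher in replicate 1 by 1.36-fold (log2 0.45, counting interval 0.39 to 0.50) and Mir199b was lower by 3.55-fold (log2 -1.83, -2.27 to -1.41). An exact two-sided binomial test with Benjamini-Hochberg adjustment over all 430 genes with at least 10 reads in sum called both, with an adjusted p of 8.93e-67 for Mir214 and 2.00e-18 for Mir199b. Mir199a-2 was not called (log2 -0.86, -1.81 to 0.10, adjusted p by the exact test 0.135), and Mir199a-1 could not be tested. This made 2 of the 3 tested genes of the dynamin loci called, 1 in each direction, where the test called 55.3% of all genes tested. The test holds counting error alone and compares these libraries, not conditions. With edgeR's exact test, run with the biological coefficient of variation set to 0.1, Mir199b stayed called and Mir214 did not (adjusted p 0.0884), where 28.6% of genes were called.

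Set beside all 430 genes, the difference of Mir199b lay in the upper range and that of Mir214 near the middle. Of these genes, 8.84% differed by more than Mir199b, 30.5% by more than Mir199a-2 and 54.7% by more than Mir214. The median size of the log2 difference was 0.53 over all genes tested, many of which have few reads. Of these, 226 averaged 100 reads or more per library, Mir214 and Mir199b among them. The binomial test called 182 of the 226, and their median size was 0.40. Beside this better-covered set, Mir214 lay slightly above the median at log2 0.45, and Mir199b far above it in size at log2 -1.83. Since scaling cancels within a library, the ratio of Mir214 to Mir199b shows the shift without it. There were 151 Mir214 reads per Mir199b read in replicate 1 (interval 120 to 194) and 31.2 in replicate 2 (26.3 to 37.3), and these intervals did not overlap. Mir199b exceeded Mir199a-2 by 3.43 reads per read in replicate 1 (2.08 to 5.87) and 6.75 in replicate 2 (4.20 to 11.4), and these intervals did overlap.

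**Figure D5:**
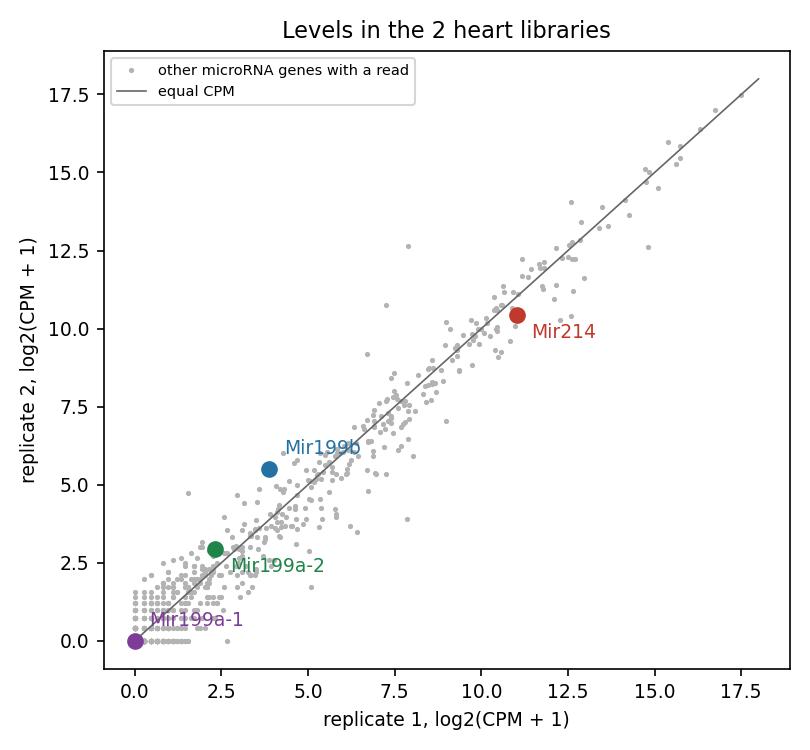
Level in replicate 1 (x axis) against replicate 2 (y axis), both as log2(CPM + 1), for every microRNA gene with a read (grey) and the 4 genes of the dynamin loci (coloured); the line marks equal CPM. Mir214 lies just below the line and Mir199b clearly above it.

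The libraries differed in markers of several cell types, whose part in these differences was not tested. The lists were chosen with earlier results of these data known. Of the 5 other fibroblast microRNAs, Mir21a, raised in many fibrotic tissues, stood at 4926 CPM in replicate 1 and 1225 CPM in replicate 2 (log2 1.87). Mir29a, whose family targets collagens, stood at 979 and 724 CPM (log2 0.30), and both were called higher in replicate 1. Mir29b-2 (2.86 and 7.93 CPM) and Mir29c (55.8 and 63.4 CPM) were called lower, and Mir29b-1 (19.3 and 11.9 CPM) was not called. Mir29b-1, Mir29b-2 and Mir29c each share 22 bases with another hairpin. Their counts are of uniquely mapped reads, 15 and 24 for Mir29b-2, and may understate their mature strands. The fibroblast list without the dynamin-locus genes thus split, with 2 higher, 2 lower and 1 not called, so that 4 of 5 were called where 55.3% of all genes were. Of these calls, those of Mir29a and Mir29c were lost with edgeR's exact test with that coefficient at 0.1 (adjusted p 0.291 and 0.354). The list had a median log2 difference of 0.30, beside -0.05 over all genes tested. Its summed level was 5983 CPM in replicate 1 and 2032 CPM in replicate 2, of which Mir21a alone made 4926 and 1225 CPM. The sum thus mostly follows Mir21a and does not show the split.

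Of the smooth muscle list, Mir143 stood at 29124 and 33002 CPM and was called lower in replicate 1, and Mir145a stood at 1209 and 877 CPM and was called higher. Both calls were lost with edgeR's exact test with that coefficient at 0.1 (adjusted p 0.262 and 0.244). As a check of the heart label, all 3 cardiomyocyte microRNAs hosted in myosin genes were detected, with a summed level of 5166 CPM in replicate 1 and 3415 CPM in replicate 2. The summed erythroid pair was at 337 and 6972 CPM, the endothelial Mir126a at 42911 and 63991 CPM, the 5 leukocyte genes at 3855 and 4154 CPM, and the 5 epithelial genes at 549 and 337 CPM. Mir122 of the liver had 55.9 and 70.4 CPM and Mir206 of skeletal muscle 7.83 and 20.5 CPM. The leukocyte sum ran against most of its genes, as 4 of 5 were called higher in replicate 1 and Mir155 (1591 and 2619 CPM) lower. All 5 epithelial genes were called higher in replicate 1. Their sum was mostly Mir200c (379 and 297 CPM), while Mir200b stood at 84.2 and 10.2 CPM. The calls of Mir200c and Mir141 were lost with edgeR's exact test with that coefficient at 0.1 (adjusted p 0.481 and 0.127).

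The genes most like each detected gene of the dynamin loci were found by distance in log2(CPM + 1) over the 2 libraries. Nearest to Mir214 were Mir676 (1968 and 1489 CPM, distance 0.13), Mir298 (2098 and 1553 CPM, 0.16) and Mir342 (1905 and 1615 CPM, 0.25). All 3 were higher in replicate 1, as Mir214 was. Nearest to Mir199b were Mir182 (15.8 and 30.4 CPM, distance 0.57), Mir505 (18.5 and 63.4 CPM, 0.64) and Mir1a-2 (mean 27.2 ± 8.75 CPM, SD, n = 2, distance 0.71), all lower in replicate 1. Nearest to Mir199a-2 were Mir7051 (3.44 and 6.28 CPM, distance 0.19), Mir582 (3.82 and 5.62 CPM, 0.21) and Mir450-1 (4.96 and 5.95 CPM, 0.28), of which none was called. Mir1a-2 and Mir450-1 each share 22 bases with another hairpin, so uniquely mapped reads may understate their mature strands. How many of their reads mapped to several places is unknown. With only 2 libraries, such likeness is close to a likeness of level. Choice by nearness in these same libraries also largely fixes the direction of the difference, so the shared directions are no separate result.

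A further annotated microRNA gene lies beside Mir199b in Dnm1. Gm23363 (chr2:32318265-32318343, plus strand) had 5 reads in replicate 1 and 1 in replicate 2, or 0.955 CPM (0.310 to 2.23) and 0.330 CPM (0.00837 to 1.84). It was the only other annotated microRNA gene within 10000 bases of the 4 genes or inside Dnm1, Dnm2 or Dnm3, and at this depth its difference between libraries could not be judged.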

How the data were processed

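The deposited tables hold whole-number read counts per microRNA gene that the authors did not normalize, made against mm10 with GENCODE M21 per the deposited readme; for the aligner and the counter, no name was given in the sources used. The 3 unnamed columns were read from their values as unstranded, own strand and opposite strand, and the own strand was used. The 4 summary lines name no gene and were left out of totals and tests. They held 13.4% (unmapped), 41.1% (several places) and 4.33% (no microRNA gene) of 12701590 reads in replicate 1, and 13.3%, 39.9% and 4.30% of 7126319 in replicate 2.

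Levels are CPM with mean and SD. Library differences used TMM sizes from edgeR 4.0.16 (R 4.3.3), 0.5 added reads and a threshold of 0.05. The binomial test was also run on simulated counts that held counting error only, with total counts as library sizes. That run cannot show how the test behaves where libraries vary beyond counting error. Sequence sharing used hairpins of GENCODE M21, without searching the rest of the genome. Alternatives were other columns, denominators, read minimums and pseudocounts, total counts, DESeq2 1.42.0 size factors, edgeR's exact test and each library alone. The genes described and the lists were chosen with earlier results of these data known. Named were the 4 genes, the 3 nearest genes of each detected one, microRNA genes near them or in Dnm1, Dnm2 and Dnm3, genes with a shared seed, and the fibroblast and smooth muscle lists. Marker lists of cardiomyocytes, endothelium, red cells, leukocytes, epithelium, liver and skeletal muscle are given beside them by their sums or single genes, and genes with every arm shared were named after their values were seen. Other work used matplotlib 3.10.9, scipy 1.17.1, numpy 2.4.6 and pandas 2.3.3 in Python 3.11.15.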

Additional observations from a re-analysis of the deposited data

How the results depend on the processing

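Mir214 stayed higher and Mir199b and Mir199a-2 lower in replicate 1 under every scaling, pseudocount, filter and column tried, and the call of Mir214 was lost only with edgeR's exact test (log2 0.45, adjusted p 0.0884; over its other alternatives it stayed called). That test also called fewer genes, 123 against 238. Against total counts, TMM shifted each log2 difference by -0.13; with total counts, 144 of 240 called genes were higher, against 120 of 238. Levels depend on the denominator: from the unstranded column, Mir214 stood at 2368 CPM and Mir199a-2 at 7.29 CPM, and scaled to 1000000 reads of any kind in the tables at 724 and 2.23. With at least 100 reads in both libraries, 1 of the 4 genes was detected in place of 3. Single libraries gave 1391 to 2080 CPM for Mir214, 13.7 to 44.6 for Mir199b and 4.01 to 6.61 for Mir199a-2. Log2 ratios in single libraries ranged from 7.68 to 8.98 for Mir214 to Mir199a-2, 4.96 to 7.23 for Mir214 to Mir199b and 1.75 to 2.72 for Mir199b to Mir199a-2. The ratio of Mir199a-1 to Mir199a-2 was not run, as Mir199a-1 had no reads. No paired analysis was possible because there was 1 group. Mir199a-2 rests on 21 and 20 reads, and the depth sets the bound given for Mir199a-1.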
